A study of Macaca mulatta with 27 samples.

Results

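The genes described here are 10 transcription factors that give the developing neural tube its regional identity along and across its axis, namely OTX2, SIX3, LHX2, EN1, EN2, GBX2, PAX6, LMX1A, LMX1B, and MSX1. They were taken by gene symbol from the count tables, which hold 17967 symbols, and all 10 were found. They were followed through 27 RNA-seq libraries of rhesus monkey PSCs, 6 of primed cells and 3 of cells converted with each of 7 protocols. These are t2iLGöY, LCDM (EPS), NHSM-v, E-NHSM, TL2i, TL-CDK8i, and 4i/L/b. The question asked of the data was which regional factors each protocol carried, and how its levels differed from those of primed cells.

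Every library came from LyonES-tGFP-(S3), a rhesus embryonic stem cell line that is 1 clone and carries a tauGFP transgene driven by the ubiquitous CAG promoter together with STAT3-ERT2, a STAT3 that tamoxifen switches on. The primed cells were the unconverted culture. TL2i cells were grown with tamoxifen, LIF, and inhibitors of MEK and GSK3β. In TL-CDK8i cells, which the study also calls TL-CDK8/19i, both of these inhibitors were replaced by CNIO-47799, an inhibitor of the kinases CDK8 and CDK19. E-NHSM, NHSM-v, 4i/L/b, t2iLGöY, and LCDM (EPS) are previously described conversion media, for which the labels refer to the original protocols, and they were used without tamoxifen. The libraries of a group are numbered in the labels, and nothing says that they came from separate cultures, so that p-values measure the spread between these libraries only. The primed columns carry the letters J and K with 3 libraries each, and they are called primed J1 to K3 here.

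In the embryo, the anterior-posterior axis of the neural plate is read from transcription factors with staggered borders. OTX2 covers forebrain and midbrain, GBX2 covers the anterior hindbrain, and the border between them sets the isthmus, the organizer at which EN1 and EN2 are expressed. SIX3 and LHX2 mark the anterior end and the eye field, and PAX6 marks dorsal forebrain, eye, and much of the ventricular zone of hindbrain and spinal cord. Across the dorsal-ventral axis, LMX1A, LMX1B, and MSX1 mark the roof plate, the dorsal midline that secretes WNT and BMP ligands. None of the 10 is restricted to the neural tube. OTX2 is a factor of the primed epiblast, GBX2 is expressed in pluripotent cells, MSX1 in neural crest and mesenchyme, and LMX1B in limb and kidney.

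Levels are given as CPM, counts scaled to library size after TMM normalization, as mean ± SD over the libraries of a group, and are compared within a gene only. Total counts ranged from 7111886 to 20760914 per library, with a median of 12201171. A group in which every library held 3 counts or fewer was taken as at the floor, which corresponds to 0.141 to 0.429 CPM depending on the library. Differences were tested with edgeR's quasi-likelihood test against the 6 primed libraries, adjusted over all genes tested, and called at an adjusted p under 0.05. In bulk libraries, fewer cells with a transcript and less transcript per cell cannot be told apart.

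The labels call all libraries rhesus ESCs, and their defining markers differed between groups. The summed level of 10 markers of pluripotent stem cells was 4527 to 5044 CPM in primed libraries and 4396 to 4645 CPM in E-NHSM libraries. It was 1427 to 1962 CPM in TL-CDK8i libraries and at most 556 CPM in the other 5 protocols. NANOG, a core pluripotency factor, was at the floor in NHSM-v, 4i/L/b, t2iLGöY, and LCDM (EPS) cells and at 0.317 CPM in TL2i cells, against 134 CPM in primed cells. The neuronal tubulin TUBB3 stood at 84.3 to 704 CPM in these 5 protocols and at 107 CPM in TL-CDK8i cells, against 10.3 CPM in primed cells. Of 12 neural progenitor and neuron markers, 7 to 12 were called higher and 0 to 2 lower in these 5 protocols. Over all tested genes, 25.6 to 28.2% were higher and 25.2 to 30.6% lower there. Lower were NES in NHSM-v and t2iLGöY, SOX3 in NHSM-v, and INA in 4i/L/b and TL2i cells. The pluripotency marker SOX2 was not called in LCDM (EPS) cells, at 329 CPM against 271 CPM in primed cells. The part of these shifts in the levels below was not tested.

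**Figure D1:**
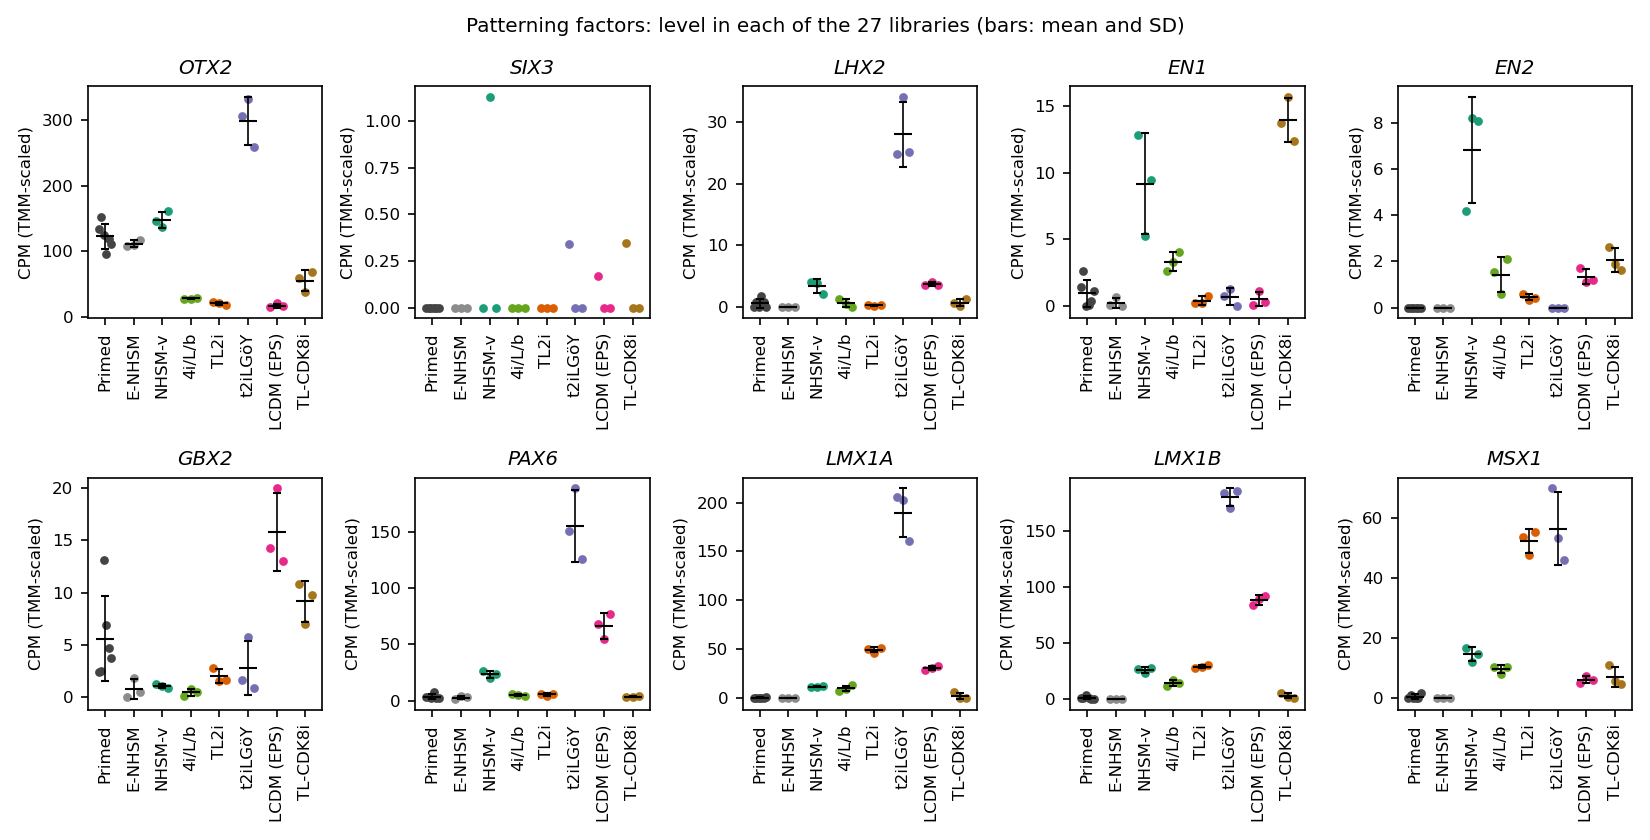
Level of each of the 10 patterning factors in each library, in CPM on a linear axis that differs between panels. Points are libraries, 6 for primed cells and 3 per protocol, and bars give the mean and SD except for SIX3, which held at most 11 counts in any library. OTX2, LHX2, PAX6, LMX1A, LMX1B, and MSX1 were highest on average in t2iLGöY cells, EN1 in TL-CDK8i, EN2 in NHSM-v, and GBX2 in LCDM (EPS) cells.

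The number of factors that differed from primed cells ran from 1 to 7 per protocol. In E-NHSM cells, 4 of the 10 factors had enough counts to be tested, and GBX2 alone was called, as lower, against a background of 15.1% of all tested genes called lower. Called higher were 0 of these 4 (11.1% of all tested genes), and also 0 at an unadjusted p under 0.05 and 0 with DESeq2. In NHSM-v cells, 6 of the 9 tested factors were called higher (background 28%) and 1 lower (background 30.6%).

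In 4i/L/b cells, 3 of 7 tested factors were higher (background 26.6%) and 2 were lower (background 29%). In TL2i cells, 3 of 7 were higher (background 25.6%) and 1 was lower (background 25.2%). Both protocols raised the same 3 factors, LMX1A, LMX1B, and MSX1. In t2iLGöY cells, 6 of 8 were higher (background 27.1%). None was lower by edgeR, 0 at an unadjusted p under 0.05 and 0 with DESeq2, against a background of 27.2%. In LCDM (EPS) cells, 6 of 9 were higher (background 28.2%) and 1 was lower (background 28.9%). In TL-CDK8i cells, 3 of 7 were higher (background 22.3%) and 1 was lower (background 23.8%). A factor that is near 0 in primed cells enters the test only where a protocol raised it, so these counts of tested factors lean toward higher calls. The 7 comparisons share the 6 primed libraries.

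**Figure D2:**
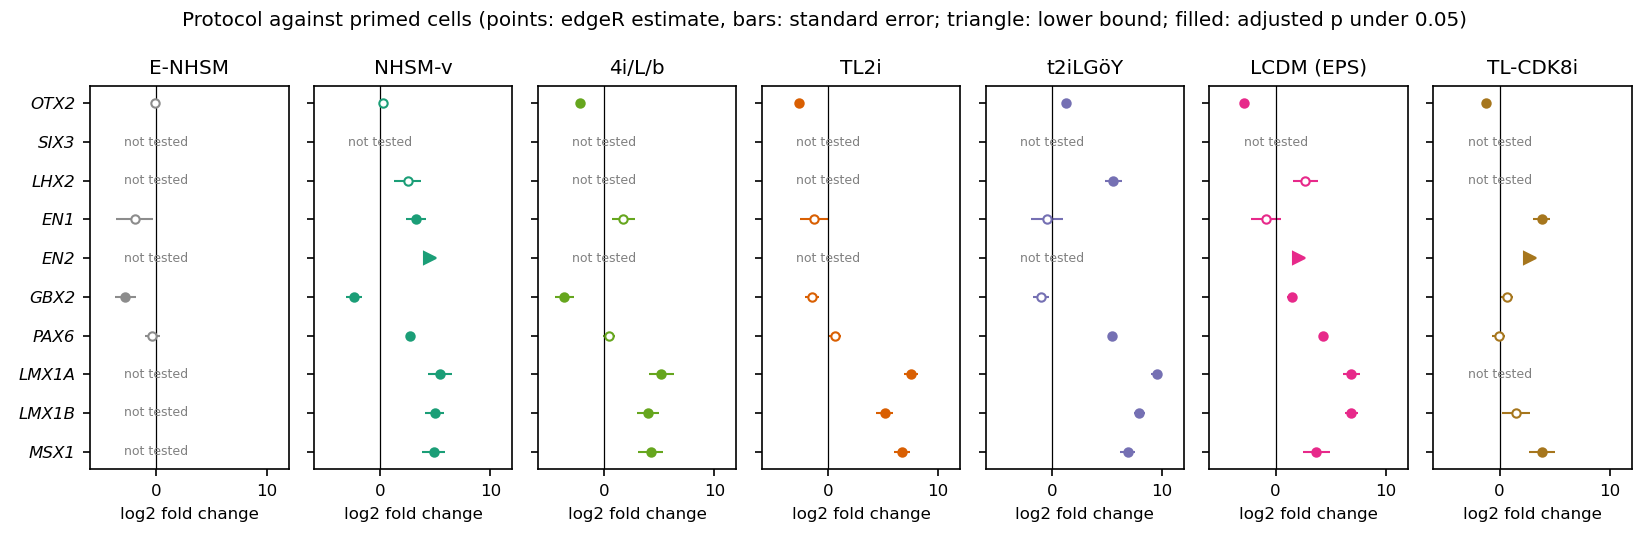
Log2 fold change of each factor in each protocol against primed cells, as estimated by edgeR, with its standard error. Filled symbols have an adjusted p under 0.05, EN2 is drawn as a triangle at its lower bound because primed cells held 0 counts, and factors with too few counts are marked as not tested. MSX1 lies to the right of 0 in the 6 protocols in which it was tested, whereas OTX2 lies on either side.

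OTX2, the head and midbrain determinant, fell in 4 protocols, rose in 1, and was not called in 2. In the 6 primed libraries it ranged from 95.7 to 151 CPM with a median of 121 CPM and a mean of 122 ± 19.2 CPM. In t2iLGöY cells the 3 libraries held 306, 332, and 258 CPM, all above every primed library. OTX2 was thus 2.44-fold higher than in primed cells (log2 fold change 1.32 ± 0.13, SE, adjusted p = 4.8e-07).

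In LCDM (EPS) cells OTX2 stood at 14.1, 20.2, and 15.8 CPM, which was 7.33-fold lower than in primed cells (log2 fold change -2.87 ± 0.17, adjusted p = 6.7e-09). In TL2i cells it stood at 21.6, 20.6, and 17.7 CPM, a 6.13-fold reduction (adjusted p = 1.2e-08). In 4i/L/b cells it stood at 26.9, 27.1, and 29.0 CPM, a 4.42-fold reduction (adjusted p = 3e-08). The libraries of these 3 protocols all lay below those of primed cells and of TL-CDK8i cells. TL-CDK8i cells were intermediate, with 58.0, 36.9, and 68.3 CPM and a 2.25-fold reduction (adjusted p = 9.7e-05).

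NHSM-v cells kept OTX2 at 146, 136, and 161 CPM, within the upper part of the primed range or just above it. The difference from primed cells was not called (log2 fold change 0.25 ± 0.13, adjusted p = 0.11), although it was with the K libraries alone (adjusted p = 0.0021) and without primed J2 (adjusted p = 0.017). E-NHSM cells held 107, 109, and 117 CPM, inside the primed range (log2 fold change -0.14 ± 0.13, adjusted p = 0.47). Between protocols, OTX2 differed in 20 of 21 pairs in a fit over the 21 protocol libraries, and the pair that did not pass was TL2i against LCDM (EPS) (adjusted p = 0.16). The order of means was t2iLGöY, NHSM-v, E-NHSM, TL-CDK8i, 4i/L/b, TL2i, and LCDM (EPS).

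SIX3, which specifies the anterior forebrain and eye field, was not detectable as a group-wide signal in any condition. It held 11 counts in NHSM-v replicate 2, 5 counts in t2iLGöY replicate 1, 3 counts in LCDM (EPS) replicate 1, and 3 counts in TL-CDK8i replicate 1. Each of the other libraries held 0 counts, which allows up to 3 counts, so that no comparison could be tested.

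LHX2, a factor of eye field and cortical progenitors, was high in 1 protocol only. Its primed libraries held 0 to 20 counts, or 0 to 1.71 CPM. The 3 t2iLGöY libraries held 24.8, 34.2, and 25.2 CPM, which was 50.5-fold above the primed mean (log2 fold change 5.58 ± 0.75, adjusted p = 1.5e-05). Without primed K1, the library with the most LHX2 counts, the log2 fold change was 6.28.

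LCDM (EPS) cells followed with 3.47, 4.01, and 3.63 CPM and NHSM-v cells with 4.06, 3.91, and 2.02 CPM. These 6 libraries were all above the primed ones, yet neither comparison passed (adjusted p = 0.06 and 0.089). Without primed K1 both passed (adjusted p = 0.025 for LCDM (EPS) and 0.034 for NHSM-v), as they did against the J libraries alone and in the fit of all 8 groups. E-NHSM libraries held 0 counts of LHX2 throughout, at least 3.55-fold below the primed mean. This difference did not enter the test of these 2 groups and was called lower in the fit of all 8 groups. The remaining protocols averaged 0.219 to 0.647 CPM. LHX2 in t2iLGöY cells differed from the next protocol, LCDM (EPS), with an adjusted p of 0.00014.

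GBX2, the counterpart of OTX2 on the hindbrain side of the isthmus and a gene also expressed in pluripotent cells, varied among primed libraries. These ranged from 2.46 to 13.1 CPM with a median of 4.26 CPM, and primed J3 was the highest. LCDM (EPS) libraries held 14.3, 20.0, and 13.0 CPM, 2.82-fold above the primed mean (log2 fold change 1.51 ± 0.47, adjusted p = 0.014). The lowest LCDM (EPS) library fell just below primed J3, so the groups overlapped by 1 library. The call was lost without LCDM (EPS) replicate 2 (adjusted p = 0.071) and against the J libraries alone (adjusted p = 0.064).

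GBX2 in TL-CDK8i cells was at 10.8, 7.02, and 9.76 CPM and was not called (log2 fold change 0.67 ± 0.51, adjusted p = 0.3), except without primed J3 (adjusted p = 0.034). In NHSM-v cells it was at 1.24, 1.13, and 0.880 CPM, 5.15-fold lower than in primed cells (adjusted p = 0.012). In 4i/L/b cells it was at 0.0961, 0.851, and 0.481 CPM, 11.7-fold lower (adjusted p = 0.0029). All 6 of these libraries were below every primed library. The size of the reduction in 4i/L/b cells, a log2 fold change of -3.59, was -4.26 without 4i/L/b replicate 2.

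GBX2 in E-NHSM cells, at 0, 1.89, and 0.538 CPM, was 6.90-fold lower than in primed cells with an adjusted p of 0.044. This call was lost when any of primed J3, K1, K2, and K3 or of E-NHSM replicates 1 and 3 was left out (highest adjusted p = 0.15), and its log2 fold change of -2.79 moved between -4.35 and -2.19 as single libraries were left out. In TL2i cells GBX2 was at 2.79, 1.57, and 1.70 CPM with an adjusted p of 0.072, which passed without primed J1 (0.045) or J2 (0.049), against the K libraries alone (0.035), and with DESeq2 (0.035). In t2iLGöY cells it was at 1.71, 5.80, and 0.939 CPM, within the primed range on average (adjusted p = 0.3).

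**Figure D3:**
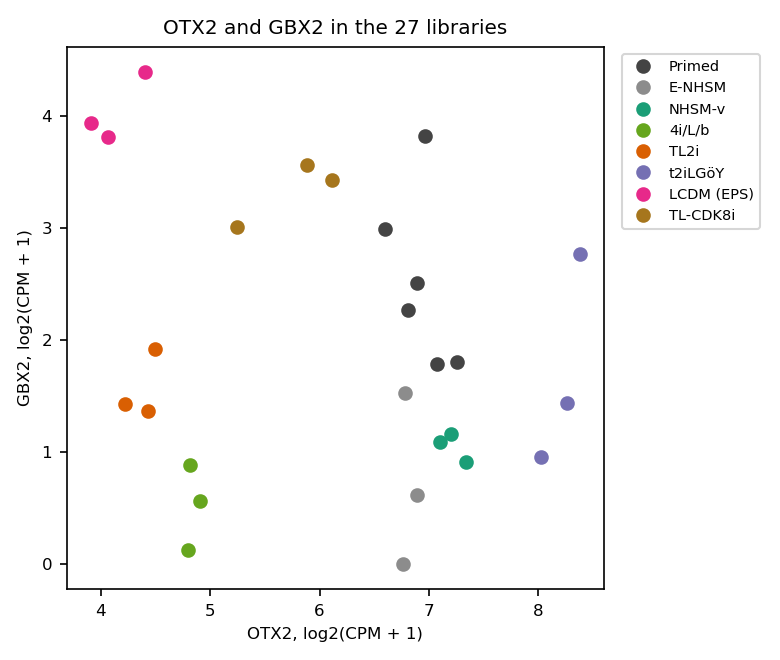
OTX2 (horizontal) and GBX2 (vertical) in each of the 27 libraries, both as log2(CPM + 1), with 1 colour per group. LCDM (EPS) libraries lie at the upper left with GBX2 at 13.0 to 20.0 CPM and OTX2 at 14.1 to 20.2 CPM, t2iLGöY libraries at the right with OTX2 at 258 to 332 CPM, and 4i/L/b libraries at the lower left.

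Read side by side, the 2 border genes gave 5 combinations of calls over the 7 protocols. Relative to primed cells, LCDM (EPS) cells had OTX2 lower and GBX2 higher, and 4i/L/b cells had both lower. TL-CDK8i and TL2i cells shared OTX2 lower with GBX2 not called. Their GBX2 nevertheless differed in the fit of the protocol libraries, at 9.19 and 2.02 CPM (adjusted p = 0.011). In that fit, GBX2 did not pass between 4i/L/b and TL2i cells (adjusted p = 0.065). NHSM-v and E-NHSM cells shared GBX2 lower with OTX2 not called, although OTX2 differed between them in that fit (adjusted p = 0.0099). The t2iLGöY cells had OTX2 higher with GBX2 not called. Over the 27 libraries, the correlation of OTX2 and GBX2 in log2 CPM was -0.179 (Pearson's r, a description, since libraries of a group share their condition).

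EN1, a factor of the midbrain-hindbrain border that is also expressed in ventral limb ectoderm and somite-derived dermis, rose in NHSM-v and TL-CDK8i cells. Primed libraries held 0 to 24 counts, or 0 to 2.59 CPM. TL-CDK8i libraries held 13.8, 15.7, and 12.4 CPM, 14.9-fold above the primed mean (log2 fold change 3.83 ± 0.77, adjusted p = 0.00096). NHSM-v libraries held 12.9, 5.25, and 9.42 CPM, 9.79-fold above it (log2 fold change 3.26 ± 0.89, adjusted p = 0.0055). All 6 were above every primed library, and without primed J2 the log2 fold changes were 4.44 and 3.91.

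In 4i/L/b cells EN1 stood at 2.59, 3.28, and 4.04 CPM and was not called (adjusted p = 0.16), although it passed against the K libraries alone (adjusted p = 0.016). The means of the other 4 protocols lay between 0.238 and 0.673 CPM, and none of them was called. TL-CDK8i and NHSM-v cells did not differ beyond their spread in EN1 (adjusted p = 0.55), nor did NHSM-v and 4i/L/b cells (adjusted p = 0.14).

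EN2, the paralog of EN1 with a narrower midbrain and anterior hindbrain domain, was at 0 counts in all 6 primed libraries and in all libraries of E-NHSM and t2iLGöY cells. NHSM-v libraries held 4.17, 8.23, and 8.10 CPM, at least 22.6-fold above the primed floor (adjusted p = 8.8e-05). TL-CDK8i libraries held 2.64, 1.89, and 1.64 CPM, at least 6.80-fold above it (adjusted p = 0.0027). LCDM (EPS) libraries held 1.71, 1.13, and 1.19 CPM, at least 4.43-fold above it (adjusted p = 0.0038).

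EN2 was also present in every library of 4i/L/b and TL2i cells, at 5 to 22 and 6 to 12 counts, but with too few counts to enter the test there. NHSM-v cells exceeded TL-CDK8i cells in EN2 (adjusted p = 0.044). TL-CDK8i, 4i/L/b, and LCDM (EPS) cells did not differ between neighbours in the order of means (adjusted p = 0.61 and 0.92). EN1 and EN2 were therefore called together in NHSM-v and TL-CDK8i cells, while LCDM (EPS) cells had EN2 called with EN1 at 0.0569, 1.08, and 0.325 CPM.

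PAX6, a paired-box factor of dorsal forebrain, eye, and hindbrain and spinal cord progenitors, rose in 3 protocols. Primed libraries ranged from 1.86 to 7.79 CPM with a median of 2.71 CPM, primed K1 being the highest. The t2iLGöY libraries held 151, 189, and 126 CPM, 45.0-fold above the primed mean (log2 fold change 5.50 ± 0.32, adjusted p = 2.2e-09). LCDM (EPS) libraries held 68.1, 54.5, and 76.8 CPM, 19.2-fold above it (log2 fold change 4.25 ± 0.35, adjusted p = 1.4e-07).

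NHSM-v libraries held 26.3, 20.2, and 23.5 CPM, 6.75-fold above the primed mean (adjusted p = 3.7e-05). These 3 protocols differed from each other and from the rest in the order of PAX6 means (adjusted p of at most 1e-05 between neighbours). TL2i, 4i/L/b, TL-CDK8i, and E-NHSM cells averaged 5.45, 4.83, 3.37, and 2.73 CPM, none was called against primed cells, and their neighbours in the order did not differ beyond their spread (adjusted p = 0.7, 0.13, and 0.4).

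LMX1A, a LIM-homeodomain factor of the roof plate that is also used by the midbrain floor plate, was nearly absent from primed cells and rose in 5 protocols. Of the 6 primed libraries, 4 held 0 counts, J1 held 1 count, and K3 held 15 counts. In t2iLGöY cells it stood at 206, 203, and 160 CPM, 789-fold above the primed mean (log2 fold change 9.51 ± 0.48, adjusted p = 5e-10). In TL2i cells it stood at 50.2, 46.5, and 51.6 CPM, 206-fold above it (log2 fold change 7.54 ± 0.67, adjusted p = 5.7e-07).

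LMX1A in LCDM (EPS) cells stood at 28.3, 31.1, and 32.6 CPM (log2 fold change 6.87 ± 0.79, adjusted p = 4.7e-06). NHSM-v cells averaged 11.6 ± 0.404 CPM (adjusted p = 0.00044) and 4i/L/b cells 9.96 ± 2.73 CPM (adjusted p = 0.0012), and these 2 protocols did not differ from each other (adjusted p = 0.66). The folds rest on primed K3. Without it the remaining primed libraries were at the floor, so only a lower bound of the fold could be given. The log2 fold changes that edgeR then estimated for the 5 protocols ran from 8.27 to 12.62. These estimates rest on primed counts near 0, so how much larger the folds were cannot be measured.

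In TL-CDK8i cells, LMX1A came from 1 library, with 53 counts in replicate 1 and 2 counts in each of the other two. It did not enter the test against primed cells and was called in the fit of all 8 groups. E-NHSM libraries held 0 counts of LMX1A.

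LMX1B, the paralog of LMX1A, which acts with it in roof plate and midbrain and also in limb and kidney, rose in the same 5 protocols. Primed libraries held 0 to 25 counts, or 0 to 3.57 CPM, with J3 the highest. The t2iLGöY libraries held 184, 170, and 185 CPM, 199.9-fold above the primed mean (log2 fold change 7.95 ± 0.53, adjusted p = 8.5e-09). LCDM (EPS) libraries held 83.2, 88.5, and 91.9 CPM, 97.7-fold above it (log2 fold change 6.86 ± 0.61, adjusted p = 3.6e-07).

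LMX1B was at 27.6, 27.8, and 29.8 CPM in TL2i cells and at 26.2, 23.0, and 27.7 CPM in NHSM-v cells, and these neighbours did not differ beyond their spread (adjusted p = 0.62). In 4i/L/b cells it was at 11, 16.4, and 14.1 CPM (adjusted p against primed cells = 0.0029). Without primed J3, the log2 fold changes of the 5 protocols ran from 5.23 to 9.0, which is 2.08 to 2.37 times larger as a fold. TL-CDK8i cells, at 5.05, 1.78, and 0.870 CPM, were not called (adjusted p = 0.36) except in the fit of all 8 groups (adjusted p = 0.017). The relative order of the LMX1 paralogs differed between protocols, with TL2i above LCDM (EPS) for LMX1A on average (adjusted p = 0.059) and LCDM (EPS) above TL2i for LMX1B (adjusted p = 1.9e-07). Whether this difference itself passes a test was not tested.

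MSX1, a BMP-responsive homeobox gene of roof plate, neural crest, and mesenchyme, was the factor called in the most protocols, higher in 6 of the 6 in which it was tested. Primed libraries held 0 counts except J2 with 9 and K3 with 21. The t2iLGöY libraries held 69.8, 53.2, and 46.0 CPM, 119-fold above the primed mean (log2 fold change 6.87 ± 0.72, adjusted p = 1.2e-06). TL2i libraries held 53.6, 47.7, and 55.2 CPM, 110-fold above it (log2 fold change 6.73 ± 0.70, adjusted p = 2.7e-06).

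MSX1 did not differ between t2iLGöY and TL2i cells beyond their spread (adjusted p = 0.74), and both were above NHSM-v, the next in order (adjusted p = 5.3e-07 for TL2i against NHSM-v). NHSM-v cells averaged 14.5 ± 2.33 CPM (adjusted p against primed cells = 0.00079). The remaining means were 9.64 CPM in 4i/L/b, 7.15 CPM in TL-CDK8i, and 6.16 CPM in LCDM (EPS) cells, with adjusted p of 0.0056, 0.017, and 0.02.

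These last 3 MSX1 calls were the least secure. With DESeq2 the adjusted p was 0.055 in 4i/L/b and 0.1 in TL-CDK8i cells. The call in TL-CDK8i cells was lost without its replicate 1 (adjusted p = 0.098), and that in LCDM (EPS) cells without its replicate 2 (0.069) or 3 (0.056). Without primed K3, the log2 fold changes of the 6 protocols ran from 4.99 to 8.21, which is 2.49 to 2.61 times larger as a fold. E-NHSM libraries held 0 counts of MSX1 and of LMX1B, at least 3.02-fold and 5.74-fold below the primed means, of which the largest values were those of primed K3 for MSX1, at 1.86 CPM, and primed J3 for LMX1B. Neither entered the test of these 2 groups, and both were called lower in the fit of all 8 groups.

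**Figure D4:**
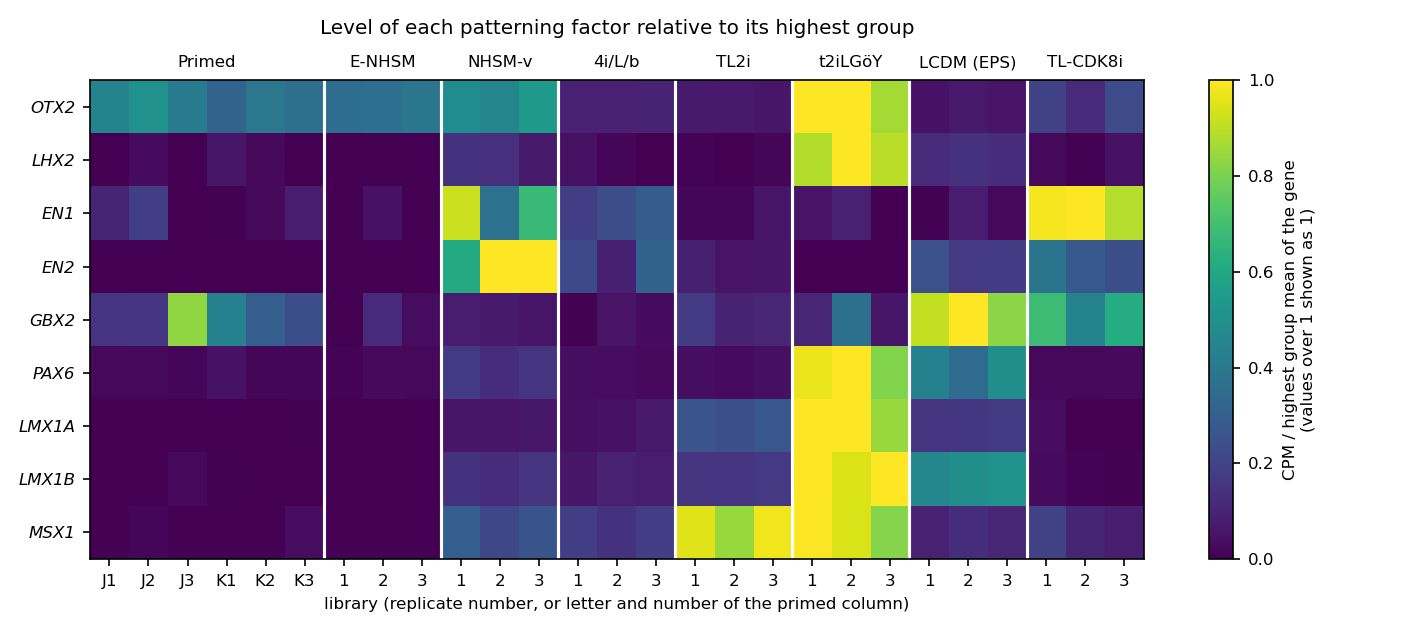
Level of 9 factors in each of the 27 libraries, divided by the highest group mean of the same gene, so that rows are comparable in pattern and not in amount. SIX3 is left out because it held at most 11 counts in any library. The columns of t2iLGöY cells are bright in 6 rows, those of TL2i cells in MSX1, those of LCDM (EPS) cells in GBX2, and those of NHSM-v and TL-CDK8i cells in EN1, with EN2 brightest in NHSM-v.

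Taking the factors by protocol, t2iLGöY cells combined high OTX2, LHX2, PAX6, LMX1A, LMX1B, and MSX1 with EN2 at 0 counts in every library. LCDM (EPS) cells combined low OTX2 with GBX2, PAX6, EN2, and the 3 roof plate factors. NHSM-v cells combined OTX2 at 147 ± 12.5 CPM and reduced GBX2 with EN1, EN2, PAX6, and the roof plate factors. TL2i and 4i/L/b cells showed the roof plate factors with reduced OTX2 and no called change in PAX6 or EN1. Against primed cells, GBX2 was called lower in 4i/L/b cells only. Between 4i/L/b and TL2i cells, the difference in GBX2 did not pass (adjusted p = 0.065). These protocols were not alike throughout, as EN1 was higher in 4i/L/b than in TL2i cells, at 3.31 against 0.402 CPM (adjusted p = 0.013). TL-CDK8i cells showed EN1, EN2, and MSX1 with reduced OTX2. In E-NHSM cells, 6 of the 10 factors were at the floor, SIX3, LHX2, EN2, LMX1A, LMX1B, and MSX1, and GBX2 was called lower, a call that single libraries could undo.

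Of 189 tested combinations of a factor and a pair of protocols, 151 passed, or 79.9%, where the share over all tested genes was 53.8% for the 21 pairs together and ran from 26.8 to 69% between pairs. By factor, the number of the 21 pairs called was 20 for OTX2 and LMX1B, 19 for LMX1A, 18 for PAX6, 17 for LHX2 and MSX1, 15 for EN2, 13 for EN1, and 12 for GBX2. These pairs share libraries, and several factors were at or near 0 in E-NHSM cells.

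Companion gene lists place the 10 factors among other genes of the same regions. Their counts are to be read against the shares of all tested genes given above, which outside E-NHSM were 22.3 to 28.2% higher and 23.8 to 30.6% lower. As with the 10 factors, a list gene near 0 in primed cells enters the test only where a protocol raised it. List counts and medians therefore lean toward higher, and the lists were chosen with earlier results of these data known. In the roof plate list, WNT3A, BMP5, RSPO2, ZIC4, ATOH1, OLIG3, PAX7, and TTR were at the floor in primed cells. Of 20 roof plate and dorsal progenitor genes, 18 of 20 tested were higher and 1 lower in t2iLGöY cells, 16 higher and 2 lower of 18 in 4i/L/b, and 15 higher and 2 lower of 19 in TL2i cells. LCDM (EPS) cells had 15 higher and 2 lower of 18, NHSM-v cells 12 higher and 2 lower of 15, and TL-CDK8i cells 10 higher and 2 lower of 16. With genes at the floor in 1 group set to their bound, the median log2 fold change of the tested list genes was 6.71 in t2iLGöY and 3.67 to 5.33 in the other 5, where the median over all tested genes was -0.02 to 0.07. Set by edgeR's estimates without bounds, it was 8.49 in t2iLGöY and 3.86 to 6.77 in the other 5. Genes called lower in these protocols were ZIC2 and ZIC5, dorsal neural genes that primed cells already held at 483 and 167 CPM.

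WNT1, a WNT ligand of the roof plate and isthmus, was at 0.396 CPM in primed cells and rose to 668 CPM in t2iLGöY cells (log2 fold change 10.75 ± 0.39, adjusted p = 1.4e-11). It reached 88.4 CPM in TL2i, 37.2 CPM in 4i/L/b, 22 CPM in NHSM-v, 19.8 CPM in LCDM (EPS), and 14.7 CPM in TL-CDK8i cells. ZIC1 rose from 0.745 CPM to 588 CPM in t2iLGöY cells, and to 13.8 CPM in TL-CDK8i cells, the lowest of these 6 protocols. The BMP ligand BMP5, at 0 counts in primed cells, was highest in TL2i cells with 166 CPM. ZIC4 was highest in t2iLGöY cells with 484 CPM and the dorsal factor PAX7 in LCDM (EPS) cells with 68.1 CPM.

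Further list genes had their highest level in t2iLGöY cells, of which TTR and WNT8B were chosen after their values were seen. TTR, the transthyretin gene, expressed in choroid plexus, was at 148 CPM in them and at most 1.96 CPM in any other group. The WNT agonist RSPO1 was at 425 CPM and at most 49.7 CPM elsewhere, and WNT8B, a gene of the dorsal forebrain midline, was at 25.7 CPM and at most 4.19 CPM elsewhere.

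Of the 17 forebrain and eye field genes, t2iLGöY cells had 5 higher and 2 lower of 10 tested, and the other protocols had 0 to 2 higher and 4 to 6 lower. The median log2 fold change of the tested list genes, with bounds, was 1.16 in t2iLGöY cells and ran from -4.59 to -0.17 in the other 6. OTX1, the paralog of OTX2, stood at 116 CPM in t2iLGöY cells and at 0.303 CPM in primed cells (log2 fold change 8.37 ± 0.51, adjusted p = 3.5e-09). In LCDM (EPS) cells OTX1 stood at 2.58 CPM and was not called (adjusted p = 0.054). LHX5, a diencephalic LIM factor, rose to 45.4 CPM in t2iLGöY, 35.8 CPM in LCDM (EPS), and 5.55 CPM in NHSM-v cells.

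FEZF2, an anterior forebrain factor, was called higher in NHSM-v cells at 18.1 CPM and in 4i/L/b cells at 7.79 CPM. Primed cells held 0.311 ± 0.762 CPM of FEZF2. With DESeq2, 0 genes of the forebrain list were higher in 4i/L/b cells, so the FEZF2 call was lost there. HESX1, a homeobox gene of the anterior neural plate and of pluripotent cells, was called lower in all 7 protocols. It fell from 17.9 CPM to between 0.113 CPM in NHSM-v and 5.33 CPM in E-NHSM cells, with 0.401 CPM in t2iLGöY cells. The WNT effector TCF7L2, the list gene of highest level, was called lower in 5 protocols. From 64.7 CPM in primed cells, it fell furthest in 4i/L/b cells, to 24.3 CPM, and in LCDM (EPS) cells, to 19.4 CPM.

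Among 14 midbrain and isthmus genes, a list that also holds WNT1, 5 of 9 tested were higher and 1 lower in NHSM-v cells and 5 higher and 2 lower of 11 in t2iLGöY cells. TL2i cells had 4 higher and 2 lower of 9, 4i/L/b cells 3 and 1 of 8, LCDM (EPS) cells 3 and 2 of 11, and TL-CDK8i cells 2 and 1 of 6. In LCDM (EPS), 4i/L/b, and TL-CDK8i cells these shares of genes higher lay near the 28.2%, 26.6%, and 22.3% of all tested genes. FGF8, the signal of the isthmic organizer and also a gene of primed cells, fell from 17.8 CPM to between 0.198 and 1.69 CPM in 5 protocols and was at 10.7 CPM in TL-CDK8i and 14.4 CPM in E-NHSM cells, where it was not called. The list's median log2 fold change lay between 1.86 and 3.27 outside E-NHSM. PAX2, an early isthmus gene, was at 0 counts in primed cells and highest in LCDM (EPS) cells with 14.8 CPM. The POU factor POU3F4 was at 27.3 CPM in LCDM (EPS), 14.6 CPM in t2iLGöY, and 14.5 CPM in NHSM-v cells. The FGF inhibitor SPRY1 fell from 47.0 CPM to 5.30 CPM in TL2i cells and to 8.67 CPM in LCDM (EPS) cells.

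Of 14 hindbrain genes, TL2i cells had 11 higher and 1 lower of 12 tested, t2iLGöY cells 10 and 2 of 13, LCDM (EPS) cells 10 and 1 of 13, 4i/L/b and TL-CDK8i cells 9 and 1 of 12, and NHSM-v cells 7 and 1 of 11. The gene that fell in all 7 protocols was EGR2, a gene of rhombomeres that is also an immediate response gene of growth factor signalling, from 188 CPM in primed cells to 0.129 CPM in LCDM (EPS) and 90.4 CPM in TL-CDK8i cells. The median log2 fold change over the tested list genes was 4.25 in LCDM (EPS), 3.67 in t2iLGöY, and 3.56 in TL2i cells. MEIS2, a HOX cofactor, rose from 8.31 CPM to 490 CPM in LCDM (EPS) and 51.6 CPM in TL-CDK8i cells. MEIS1 rose from 6.49 CPM to 128 CPM in LCDM (EPS) cells.

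Anterior HOX genes of the hindbrain were raised together with OTX2 as well as without it. HOXA2, the most anterior HOX gene of the hindbrain, was at 0.127 CPM in primed cells and at 45.3 CPM in NHSM-v, 41.6 CPM in LCDM (EPS), and 14 CPM in t2iLGöY cells, all called higher.

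The 16 genes of the posterior neural tube, mostly trunk HOX and CDX genes, had at most 1 member higher in any protocol, HOXC6 in NHSM-v at 13.9 CPM, CDX2 in TL2i at 4.76 CPM, and NKX1-2 in TL-CDK8i cells at 31.8 CPM against 4.34 CPM in primed cells. The list's median log2 fold change ran from -1.89 in LCDM (EPS) to 1.05 in NHSM-v cells outside E-NHSM. LCDM (EPS) and TL2i cells had 4 lower of 10 and of 9 tested, where 28.9% and 25.2% of all tested genes were lower. HOXB9 in TL2i cells was at 0.721 CPM against 4.80 CPM in primed cells.

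Of 17 floor plate and ventral genes, 4 were higher and 0 lower of 8 tested in TL2i cells and of 9 in LCDM (EPS) cells. Higher and lower were 3 and 1 of 9 in t2iLGöY, 2 and 1 of 6 in both 4i/L/b and NHSM-v, and 1 and 0 of 5 in TL-CDK8i cells, shares of genes higher near those of all tested genes. FOXA2, a determinant of the floor plate, was the gene called lower in NHSM-v cells, at 0 CPM, and in t2iLGöY cells, at 0.0227 CPM, against 2.51 CPM in primed cells. The list's median log2 fold change was 2.49 in TL2i cells and 0.08 to 0.89 in the other 5. SHH, the ventral signal, named after its values were seen, was called higher in TL2i cells, at 4.39 CPM. SHH was 0.788 CPM or less in every other group, with too few counts to be tested in the other protocols. SPON1, a floor plate matrix protein, was higher at 11.8 to 14.1 CPM in TL2i, LCDM (EPS), t2iLGöY, and 4i/L/b cells, and CORIN, a floor plate protease, ran from 5.41 to 14.9 CPM across groups and was called lower in 4i/L/b cells alone. NTN1, a floor plate guidance cue, was 22.1 CPM in TL-CDK8i against 2.17 CPM in primed cells (log2 fold change 3.32 ± 0.42, adjusted p = 1.6e-05).

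In E-NHSM cells, 15.1% of all tested genes were lower and 11.1% higher. The forebrain list had 5 lower of 6 tested, the hindbrain list 4 of 9, the posterior list 3 of 9, and the midbrain list 2 of 5. The roof plate list had 2 lower of 9 and the floor plate list 1 lower and 1 higher of 7, which is near the shares of all tested genes. No gene of the forebrain, midbrain, or hindbrain lists was called higher in E-NHSM cells, with 0 at an unadjusted p under 0.05 and 0 with DESeq2. The posterior and roof plate lists had 0 higher by edgeR's adjusted p, and each had 1 at an unadjusted p under 0.05 and 1 with DESeq2.

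**Figure D5:**
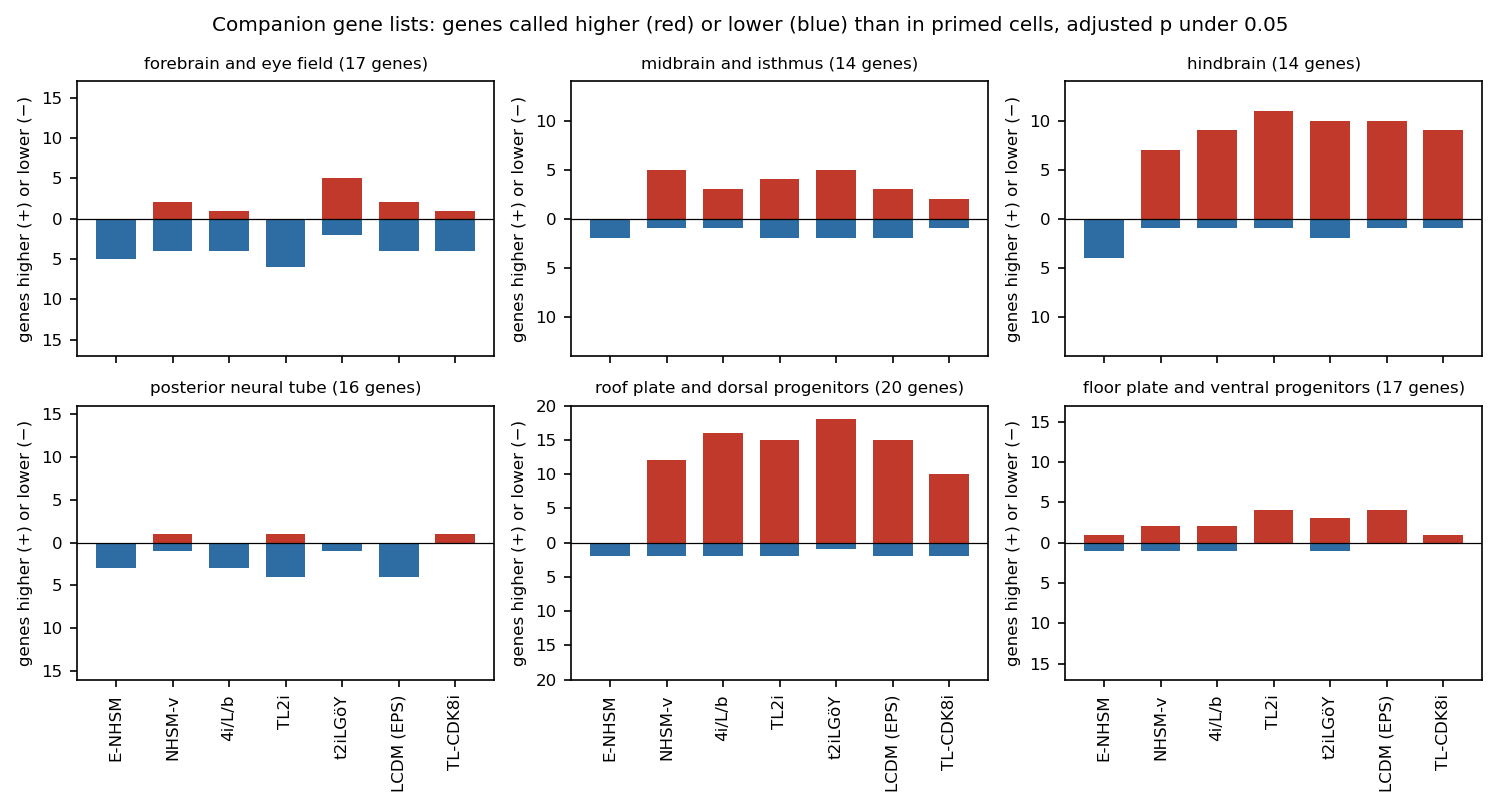
Number of genes of 6 companion lists called higher (red, upward) or lower (blue, downward) than in primed cells in each protocol, at an adjusted p under 0.05, with axes that span the whole list. The roof plate and dorsal list had 10 to 18 genes higher outside E-NHSM, the hindbrain list 7 to 11, and the posterior neural tube list at most 1.

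Markers of other cell types also differed between groups. The summed level of 10 neural crest markers was 211 to 260 CPM in primed libraries, 274 to 276 CPM in NHSM-v, 328 to 349 CPM in E-NHSM, and 389 to 521 CPM in TL-CDK8i libraries. It was 568 to 601 CPM in LCDM (EPS), 716 to 743 CPM in 4i/L/b, 763 to 1045 CPM in TL2i, and 871 to 1311 CPM in t2iLGöY libraries. Of the 10 markers, 9 were higher and 0 lower in TL2i cells, 7 and 1 in t2iLGöY and in TL-CDK8i, 5 and 2 in NHSM-v, 4 and 3 in LCDM (EPS), and 6 and 1 in 4i/L/b cells, and of 9 tested in E-NHSM cells 3 were higher and 2 lower.

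SOX10, a defining crest factor, was at 178 CPM in t2iLGöY, 126 CPM in TL2i, 35.1 CPM in 4i/L/b, and 20.4 CPM in TL-CDK8i cells. It was at 0.480 CPM in NHSM-v and 4.07 CPM in LCDM (EPS) cells, where it was not called. SOX9, TFAP2A, and TFAP2B, which crest shares with other tissues, were called higher in both of these protocols, with TFAP2B at 33.6 CPM in NHSM-v and 265 CPM in LCDM (EPS) cells against 1.01 CPM in primed cells.

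The summed level of 11 fibroblast and mesenchyme markers was 1167 to 2526 CPM in primed libraries. It was 11705 to 15213 CPM in 4i/L/b, 8825 to 11406 CPM in TL-CDK8i, 8035 to 8607 CPM in NHSM-v, 2987 to 5799 CPM in TL2i, 3458 to 4078 CPM in t2iLGöY, and 789 to 1020 CPM in LCDM (EPS) libraries. In E-NHSM libraries it was 409 to 458 CPM. In t2iLGöY cells 3 of 9 tested markers were higher, COL1A1, COL3A1, and PDGFRB, and 3 were lower. LUM and DCN, matrix proteins of fibroblasts, were at 0 counts in every t2iLGöY, primed, and E-NHSM library. LCDM (EPS) cells had the highest sum of 12 neural progenitor and neuron markers, 7043 to 7325 CPM, against 2445 to 2736 CPM in primed libraries.

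Of 10 amnion and surface ectoderm markers found of 11, the sum was 109 to 150 CPM in primed and 12 to 282 CPM in protocol libraries. The part of these cell types in the levels of the 10 factors was not tested.

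The genes whose pattern was most like each factor were sought over log2 CPM in the 27 libraries, among 14751 genes, as a description in which libraries of 1 group share their condition. The nearest genes were RTN4RL1 (Pearson's r = 0.919) and ERVMER34-1 (0.875) for OTX2, and PAX6 (0.905) and APBB1 (0.87) for LHX2. For EN1 they were FOXF2 (0.86) and CSRP1 (0.857), and for EN2 VGLL3 (0.912) and PDE4D (0.909).

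GBX2 had no close match, with PLCL2 (0.819) and KIF2A (0.786) the nearest. PAX6 was nearest to ADCYAP1 (0.961) and B3GALT2 (0.954), LMX1A to PRDM12 (0.973) and ZNF521 (0.959), and LMX1B to BAHCC1 (0.967) and CD47 (0.963). MSX1 was nearest to WNT1 (0.969) and RELN (0.95). Among the factors themselves, LMX1A followed LMX1B (r = 0.922) and MSX1 (0.908), and EN1 followed EN2 (0.666).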

How the data were processed

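Strand-specific mRNA libraries were read from 1 end, and what the authors deposited are raw read counts by gene symbol, not normalized and not pooled. Per the labels, the submitters' notes name bcl2fastq, cutadapt, HISAT2, and HTSeq. The genome build, the annotation, and the use of strand in counting are not given in the sources used here, so no positions are printed, and reads shared with overlapping or antisense genes could not be examined. Primed columns show their group only, and all columns could be assigned to a group.

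TMM factors, CPM, and quasi-likelihood tests were computed with edgeR 4.0.16 (limma 3.58.1, R 4.3.3) on the genes kept by filterByExpr, on the 2 groups of each comparison, without a block. The 21 pairs of protocols were tested in a fit of the 21 protocol libraries. Adjustment was by Benjamini-Hochberg over all genes tested, at 0.05. No transcript lengths were used, so levels were not compared between genes. For likeness, CPM were taken to log2 after adding a prior count of 2. Scripts were tested on simulated counts. The members and lists were chosen with earlier results of these data known. All 10 members are named, and of each companion list the 3 genes of highest level and, per protocol, the called genes of highest and lowest fold change were available for naming. SHH, TTR, and WNT8B were named after their values were seen. KRT18 was the list gene not found. Some list genes are counted but not reported here by name.

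Within a group, no 2 libraries agreed within sampling noise (chi-square per gene 3.98 to 29.8 over 36 pairs). Alternatives were DESeq2 1.42.0, upper-quartile normalization, no filter, at least 10 counts in every library, a log2 fold change of at least 1, all 8 groups in 1 fit, primed columns of 1 letter only, a replicate block, and each library left out.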

Additional observations from a re-analysis of the deposited data

Results flagged for a closer look

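In the primed group, the only group with enough libraries for a test of single values, 3 values stood apart by Dixon's criterion. Chance meets this criterion in about 1 in 20 groups of normally distributed values. Counts near 0, as for LMX1A and LMX1B, are not so distributed, and the rate for them was not computed. PAX6 in primed K1 was at 7.79 CPM, from 91 counts, where the next library was at 3.45 CPM. LMX1A in primed K3 was at 1.33 CPM, from 15 counts, where the next was at 0.112 CPM. LMX1B in primed J3 was at 3.57 CPM, from 25 counts, where the next was at 0.941 CPM. The 3 values came from 3 different libraries. Without them the folds that edgeR estimated for LMX1A and LMX1B were larger, as given with these genes, for LMX1A against primed libraries at the floor.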

How the results depend on the processing

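Over 51 tested fold changes of the patterning factors, the alternatives gave 775 values, of which 737 kept direction and side of the threshold, 14 were no longer called, 17 were newly called, and 7 changed sign, 0 of these among calls. With at least 10 counts in every library, which leaves fewer factors to test, the factors called were 0 lower in E-NHSM, 1 higher in NHSM-v, 0 higher and 1 lower in 4i/L/b, 0 higher and 2 lower in TL2i, 2 higher in t2iLGöY, 2 higher in LCDM (EPS), and 0 higher in TL-CDK8i cells, and 38 combinations differed between pairs of protocols. In the fit of all 8 groups, which tests more genes, 4 factors (LHX2, GBX2, LMX1B, and MSX1) were lower in E-NHSM and 5 higher in TL-CDK8i cells. In E-NHSM, 0 were lower against the J libraries, and 0 to 1 when 1 library was left out. In TL2i, 2 were lower with DESeq2 and against the K libraries, and 1 to 2 when 1 library was left out. The cause of these other changes was not tested.

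Changes of sign concerned uncalled values. Against the K libraries the log2 fold change was 0.042 for OTX2 in E-NHSM and 0.37 for EN1 in t2iLGöY cells, and against the J libraries 0.15 for PAX6 in TL-CDK8i cells. With 1 library left out, it ran from -0.61 to 0.078 for PAX6 in E-NHSM, from -1.26 to 0.16 for EN1 in t2iLGöY, and from -0.19 to 0.35 for PAX6 in TL-CDK8i cells.

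No paired analysis was possible for the comparisons with primed cells because the primed columns carry no replicate number that the labels share with the protocols. Between protocols, same-numbered libraries did not deviate together (63 correlations of -0.127 to 0.064), and with a replicate block 151 combinations differed, 150 of them shared with the fit without it. Depth limits SIX3, which held at most 11 counts in any library, and EN2 in 4i/L/b and TL2i cells, where it held 5 to 22 and 6 to 12 counts.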
